A study of Arabidopsis thaliana with 18 samples.

Results

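The transcripts of a pair of glutathione-dependent redox proteins were followed in light-grown Arabidopsis cell suspension cultures (ACSC). They were the glutaredoxin GRX480 (At1g28480) and the dehydroascorbate reductase DHAR2 (At1g75270). The members were picked out by locus, and each had 1 probe set, so that 2 of the 22746 probe sets tested belong to them. GRX480 was named by the annotation of the platform, whereas DHAR2 was named by its locus in the study's own table of transcripts changed by H2O2. Total RNA was hybridized to 18 Affymetrix ATH1 arrays, 3 in each of 6 groups. Cells received Rose Bengal (RB) at 0.5 μM, H2O2 (HP) at 500 μM, the dye labelled Methyl Violet and called Methylene Violet in the study (MV) at 0.5 μM, or Indigo Carmine (IC) at 0.5 μM. Untreated cells formed a control for RB and HP and another control for MV and IC, so that RB and HP share their control arrays, as do MV and IC. All groups were cultures of unmodified cells of the Columbia ecotype grown under continuous light, and RB, MV and IC are photosensitizers that were used to produce singlet oxygen. The treatment lasted 30 min. The labels mention both high light and 1 h of darkness without assigning them to arrays, whereas the study describes light-treated cells here.

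Glutaredoxins are small proteins of the thioredoxin fold that reduce disulphides, or remove glutathione from proteins, with electrons from glutathione. GRX480, also called ROXY19, is one of the CC-type glutaredoxins, a class of land plants, and binds TGA transcription factors, through which it can repress jasmonate- and ethylene-dependent defence genes. Dehydroascorbate reductases spend glutathione to turn dehydroascorbate back into ascorbate, a step of the ascorbate–glutathione cycle by which plant cells dispose of H2O2. DHAR2 is a member found in the cytosol, and DHAR3 is that of the chloroplast.

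Signals were deposited on the log2 scale after RMA, a summary of the probes of each probe set with background correction and quantile normalization. They lay between 2.43 and 13.69, with array medians from 4.92 to 5.15 and correlations between replicates from 0.9643 to 0.9912. Of 6 markers chosen for cells with chloroplasts 1 could be named here, the Rubisco activase RCA, which had a log2 signal from 10.24 to 11.56 over all arrays. The files used here hold no detection calls, so it is not known whether GRX480 was above background in untreated cells. Differences were tested with limma over all probe sets, with n = 3 arrays per group, and were called at a Benjamini–Hochberg adjusted p under 0.05. The labels call the treated arrays biological replicates without saying how the cultures were kept apart. The p-values set each difference against the spread of these arrays within groups, which the fit of all 18 arrays pools over the 6 groups. A lower signal in such bulk samples cannot tell fewer responding cells from less transcript per cell.

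Both transcripts rose under H2O2, GRX480 by 18.7-fold and DHAR2 by 3.88-fold. The log2 signal of GRX480 was 5.41, 5.40 and 5.07 in control arrays 1, 2 and 3 and 10.54, 8.53 and 9.49 in HP arrays 1, 2 and 3. Each HP array stood far above each control array, and the HP arrays themselves differed by 2.02 on the log2 scale from the lowest to the highest. The mean moved from 5.30 ± 0.193 to 9.52 ± 1.01 (SD, n = 3), a log2 fold change of 4.23 (standard error 0.496, 95% interval 3.17 to 5.28, limma adjusted p = 0.00026). Set against the control array of the same number, the rise was 5.13, 3.13 and 4.42. By size it was rank 6 among the 22746 log2 fold changes of HP, and by p-value it was rank 29.

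For DHAR2 the log2 signal was 8.20, 9.04 and 9.0 in the control arrays and 10.56, 10.67 and 10.88 in the HP arrays. The HP arrays lay close together and above every control array. The mean moved from 8.75 ± 0.472 to 10.70 ± 0.162 (SD, n = 3), a log2 fold change of 1.96 (standard error 0.274, 95% interval 1.37 to 2.54, limma adjusted p = 0.00155). The differences within same-numbered arrays were 2.36, 1.63 and 1.88, all upward. It was rank 60 by size and rank 44 by p-value. Of all probe sets 0.813% were called under H2O2 and 0.629% were called higher, beside both members here. The locus of DHAR2 is known here through the study's list of transcripts that H2O2 had changed in the same arrays, so its call is not independent evidence. Fitted to the HP and control arrays alone, with fewer degrees of freedom, DHAR2 missed the threshold (adjusted p = 0.0637). Both calls held in each of the 18 fits without 1 array and with the replicate block, which called 2.37% of probe sets.

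**Figure D1:**
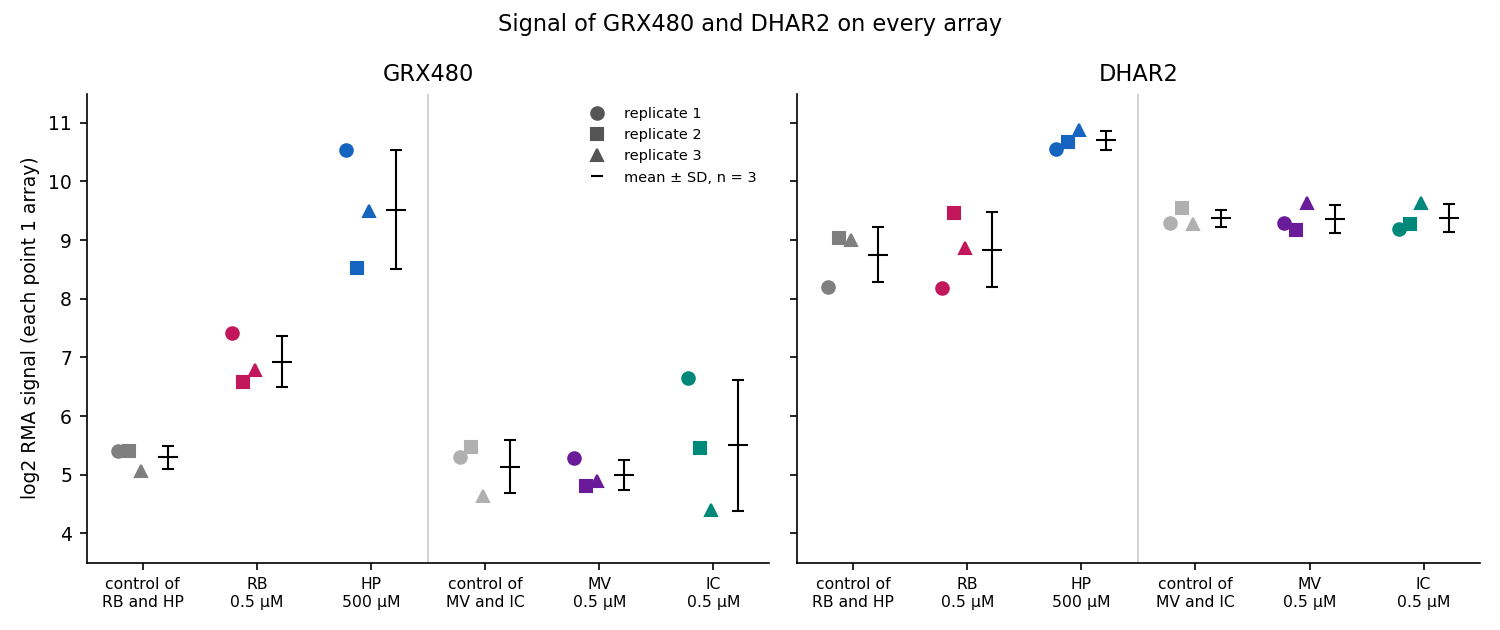
Log2 RMA signal of GRX480 (left) and DHAR2 (right) on each of the 18 arrays, by group, with the symbol giving the replicate number and bars the mean ± SD of 3 arrays. The HP arrays lie highest for both transcripts, and the RB arrays of GRX480 lie between 6.58 and 7.41, above their control arrays, whereas those of DHAR2 overlap theirs.

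Under RB neither transcript passed in the fit of all 18 arrays without pairing. GRX480 had log2 signals of 7.41, 6.58 and 6.79 in RB arrays 1, 2 and 3, all above the control arrays, whose highest value was 5.41. The mean of 6.93 ± 0.429 (SD, n = 3) gave a log2 fold change of 1.63, or 3.1-fold (standard error 0.496, 95% interval 0.58 to 2.69), which did not pass (limma adjusted p = 0.0987, unadjusted p = 0.00487). When arrays of the same number were paired through a replicate block, the same difference passed (standard error 0.357, adjusted p = 0.0147). Within pairs the difference was 1.99, 1.18 and 1.72, all upward. Without the block it was also called when fitted to the RB and control arrays alone (standard error 0.242, limma adjusted p = 0.0405). Under RB 2.96% of probe sets were called without the block and 7.25% with it. The study reports GRX480 as up-regulated by RB, from the same arrays, whereas the fit without the block did not call it. The reason for this difference was not tested.

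DHAR2 had log2 signals of 8.18, 9.46 and 8.86 in the RB arrays, which spanned the range of the control arrays. The mean of 8.84 ± 0.641 (SD, n = 3) gave a log2 fold change of 0.091 (standard error 0.274, 95% interval -0.49 to 0.67, limma adjusted p = 0.92). Within pairs the difference was -0.018, 0.42 and -0.13, of mixed sign. With the block the interval was -0.33 to 0.51 (adjusted p = 0.848).

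Set directly against each other, both transcripts were lower in RB than in HP. GRX480 was lower by a log2 difference of -2.59 (standard error 0.496, 95% interval -3.65 to -1.54, limma adjusted p = 0.00858). Pairs of the same number differed by 3.14, 1.95 and 2.70 in favour of HP. Fitted to the RB and HP arrays alone, the adjusted p was 0.0522. DHAR2 was lower by -1.86 (standard error 0.274, 95% interval -2.45 to -1.28, adjusted p = 0.00116), with pairs differing by 2.37, 1.21 and 2.01 in favour of HP. In this comparison 2.84% of probe sets were called and 1.99% were called lower in RB. With the replicate block, where 6.85% were called, both members passed too (adjusted p = 0.000766 for GRX480 and 0.000106 for DHAR2). The concentrations of RB and H2O2 differ, and that of H2O2 had been chosen in the study to give oxidative damage comparable with that of the photosensitizers. Since DHAR2 was named through the study's list for H2O2, its call here too is not independent evidence.

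The other photosensitizers were given at the same dose as RB. The study gives lower singlet oxygen yields for MV and IC than for RB, so an equal dose is not an equal production of singlet oxygen. In their control the log2 signal of GRX480 was 5.31, 5.47 and 4.63. In the MV arrays it was 5.29, 4.81 and 4.89, within the range of the control, and the log2 fold change was -0.14 (standard error 0.496, 95% interval -1.20 to 0.91, limma adjusted p = 1). In the IC arrays it was 6.65, 5.45 and 4.40, with array 1 above and array 3 below every control array. The log2 fold change of IC was 0.36 (standard error 0.496, 95% interval -0.70 to 1.42, adjusted p = 1) and turned to -0.21 without IC array 1. The intervals are wide, and do not show that GRX480 stayed level under either dye.

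DHAR2 showed little spread in this set of arrays. Its log2 signal was 9.30, 9.54 and 9.28 in the control, 9.29, 9.18 and 9.63 under MV, and 9.19, 9.28 and 9.64 under IC, and the 3 groups overlapped. The log2 fold change was -0.0082 for MV (95% interval -0.59 to 0.58) and -0.0049 for IC (95% interval -0.59 to 0.58), each with a standard error of 0.274 and a limma adjusted p of 1. Under MV and under IC, 0 probe sets were called by limma with or without the block, and 758 and 374 had an unadjusted p under 0.05.

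The 3 pairs of photosensitizers were compared at 0.5 μM through each dye's own control, with p-values adjusted over all probe sets. For GRX480 the effect of RB exceeded that of MV by 1.77 on the log2 scale (standard error 0.702, 95% interval 0.28 to 3.26, limma adjusted p = 0.45) and that of IC by 1.27 (standard error 0.702, 95% interval -0.22 to 2.76, adjusted p = 0.564). Neither difference passed, also with the replicate block (adjusted p = 0.13 and 0.253), under which 1.34% and 2.44% of probe sets were called. MV and IC differed by -0.50 (95% interval -1.56 to 0.55, adjusted p = 1). For DHAR2 the effect of RB exceeded that of MV by 0.099 (adjusted p = 0.961) and that of IC by 0.096 (adjusted p = 0.958), both with a 95% interval of -0.73 to 0.92. MV and IC differed by -0.0033 for DHAR2 (95% interval -0.59 to 0.58, adjusted p = 1). None passed, and the intervals leave room for differences that these arrays could not resolve. Of all probe sets 0.374%, 0.615% and 0% were called in these comparisons, and between MV and IC 448 had an unadjusted p under 0.05.

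**Figure D2:**
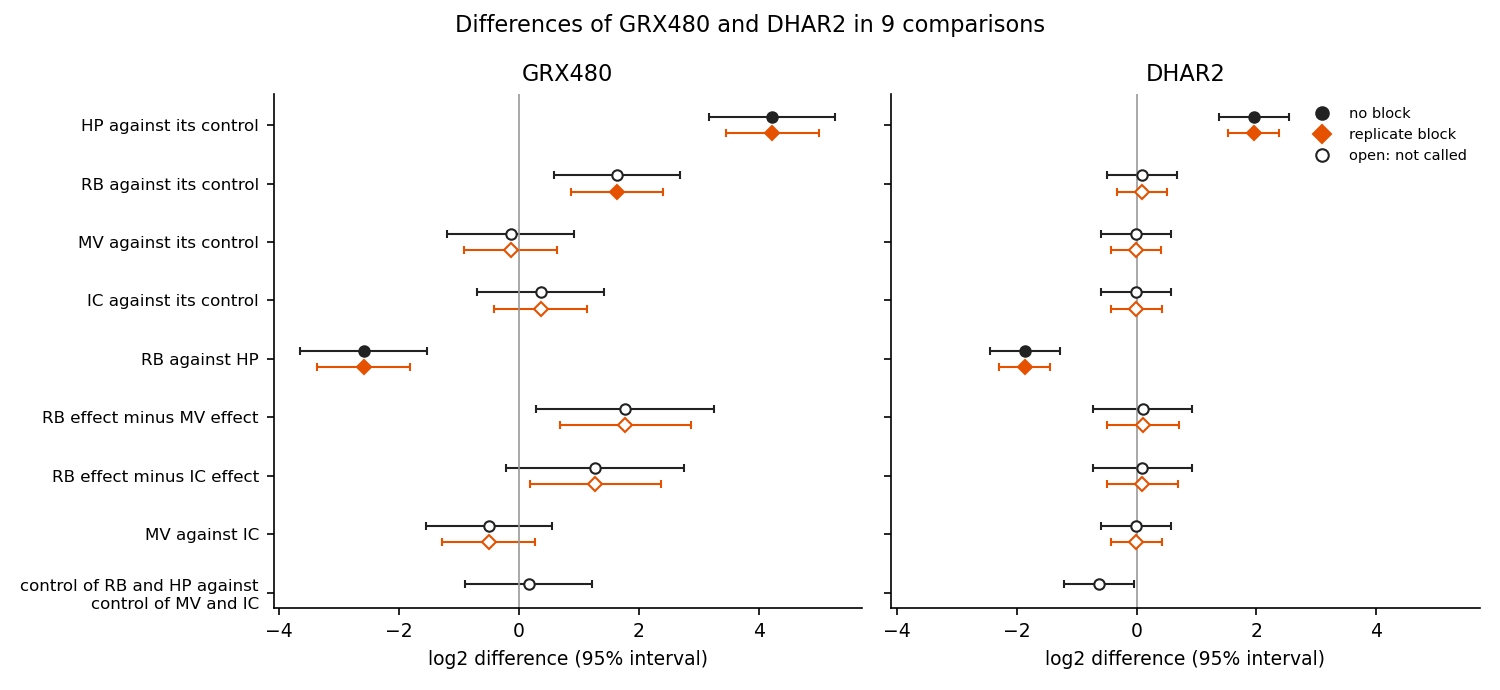
Log2 differences of GRX480 (left) and DHAR2 (right) in 9 comparisons with their 95% intervals, without (circles) and with (diamonds) the replicate block, and filled where the adjusted p was under 0.05. The filled points are HP against its control and RB against HP for both transcripts and, for GRX480 with the block, RB against its control.

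In order of the group means, GRX480 was highest in HP (9.52), then RB (6.93), IC (5.50), the controls (5.30 for RB and HP, 5.14 for MV and IC) and MV (5.0). The arrays of HP lay above those of RB, whereas RB and IC, and all neighbours below them, overlapped. DHAR2 was highest in HP (10.70), then at 9.37 in the control of MV and IC and in IC, 9.36 in MV, 8.84 in RB and 8.75 in the control of RB and HP, the lowest of the 6 means. The control groups differed for DHAR2 by -0.63 (standard error 0.274, 95% interval -1.21 to -0.044), which did not pass (limma adjusted p = 0.165), and for GRX480 by 0.16 (95% interval -0.90 to 1.21, adjusted p = 0.871). The control groups differed in 7.47% of probe sets. All HP arrays of DHAR2 also lay above every array of the control of MV and IC, whose highest value was 9.54.

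The spread within groups was large for GRX480, and the same replicate number was often highest. GRX480 had a residual standard deviation of 0.679, larger than that of 97.8% of probe sets, and DHAR2 one of 0.364, larger than that of 81.2%. GRX480 was highest on the array numbered 1 in 5 of the 6 groups, with a deviation from the group mean of 1.15 in IC and 1.02 in HP. The exception was the control of MV and IC, where array 2 was highest. DHAR2 was never highest on an array numbered 1 and was lowest there in 4 of the 6 groups, with a deviation of -0.54 in the control of RB and HP and -0.65 in RB. Over the 18 arrays the log2 signals of the transcripts correlated with r = 0.588, and over the 15 arrays other than HP with r = -0.494. Deviations from the group means correlated with r = -0.394. These correlations are a description, over arrays that include same-numbered pairs.

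**Figure D3:**
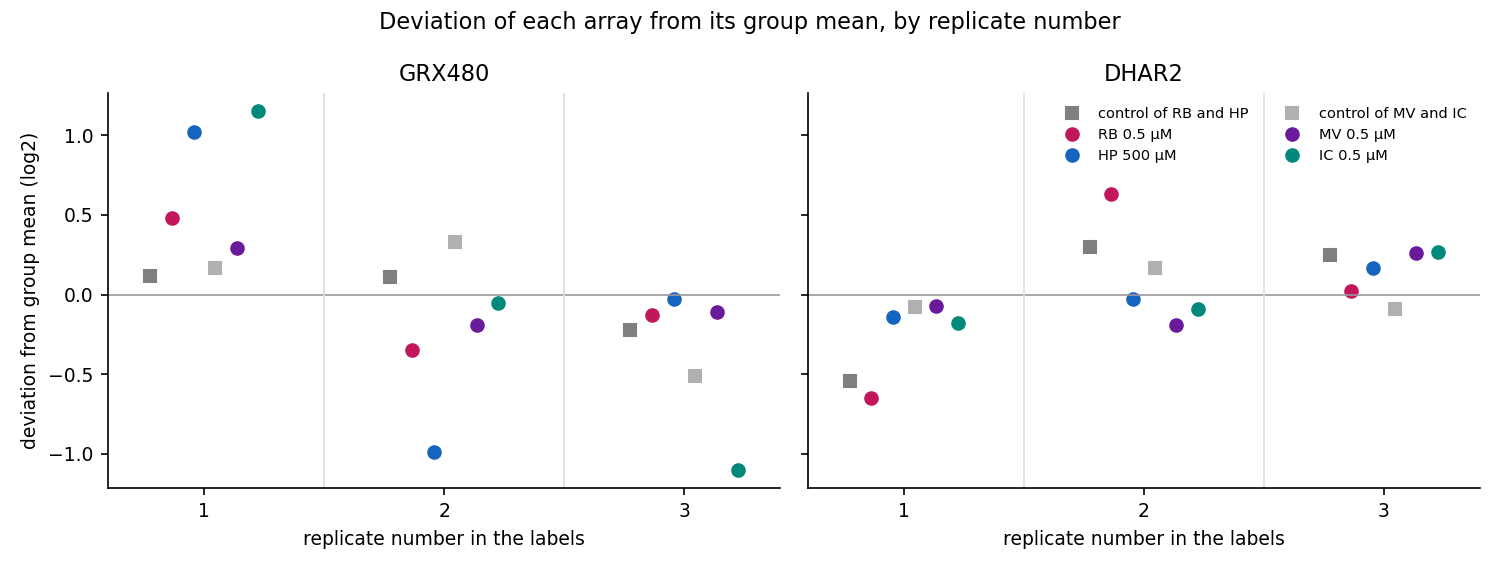
Deviation of the log2 signal of GRX480 (left) and DHAR2 (right) on each array from the mean of its group of 3, by the replicate number in the labels and coloured by group. Array 1 lies above the mean in all 6 groups for GRX480, by 0.12 to 1.15, and below it in all 6 for DHAR2, with deviations from -0.65 to -0.074.

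The other CC-type glutaredoxins were taken from a list of 20 loci, of which 17 had a probe set named here, ROXY18 through the study's tables and the rest through the platform. Without the block 0 of the 17 were called under H2O2 or under RB, beside 0.813% and 2.96% of all probe sets, and 4 and 1 had an unadjusted limma p under 0.05, beside 2898 and 3379 of the 22746 probe sets. Under MV and IC 0 of the 17 were called or had such a p. Their log2 fold changes under H2O2 had a median of -0.135 and ran from -0.59 in ROXY20 to 1.17 in ROXY18, and 3 of the 17 were above 0. Under RB the median was -0.0254, from -0.21 in ROXY17 to 0.79 in ROXY21. The medians of all probe sets were -0.0226 and 0.0211. Of the 17 only ROXY18, ROXY20 and ROXY21 had a mean log2 signal above 5.09, at 5.76, 7.56 and 5.13. The means of the others ran from 2.88 in ROXY4 to 4.46 in ROXY1, where the lowest signal on any array was 2.43. Near that floor a missing call does not show that a gene stayed level. Genes numbered ROXY11 to ROXY15 lie in a tandem array of near-identical copies, so their probe sets may share signal.

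ROXY18, also named GRXS13, was called in 1 of the fits. Its log2 signal in replicates 1, 2 and 3 was 5.70, 4.87 and 5.02 in the control and 7.06, 6.18 and 5.86 in HP, so that the HP arrays lay above the control arrays. In the other set of arrays it ranged from 4.29 to 7.33 within the control alone, with array 1 highest in every group of the study. The log2 fold change of 1.17 under H2O2 did not pass without the block (standard error 0.782, limma adjusted p = 0.546), whereas with the block it did (standard error 0.196, adjusted p = 0.00676). Pairs of the same number differed by 1.36, 1.31 and 0.83. Under RB the pairs differed by 0.61, 0.24 and -0.035 (adjusted p = 0.915, and 0.492 with the block). With the block 1.77% of probe sets were called higher under H2O2, and the study's tables name ROXY18 because it was changed there, so this is not independent evidence.

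ROXY21 was called under RB with the block alone. Its log2 signal was 5.58, 5.55 and 4.37 in the control, 6.23, 5.85 and 5.80 in RB, and 6.17, 5.85 and 5.51 in HP. Its log2 fold change under RB was 0.79 (standard error 0.285, limma adjusted p = 0.175), which passed with the block (adjusted p = 0.0243), beside 3.56% of probe sets called higher in that fit. Under H2O2 it was 0.68 (adjusted p = 0.337, and 0.0929 with the block). Control array 3 lay more than 1 below the other control arrays, and without it the log2 fold change under RB was 0.40.

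**Figure D4:**
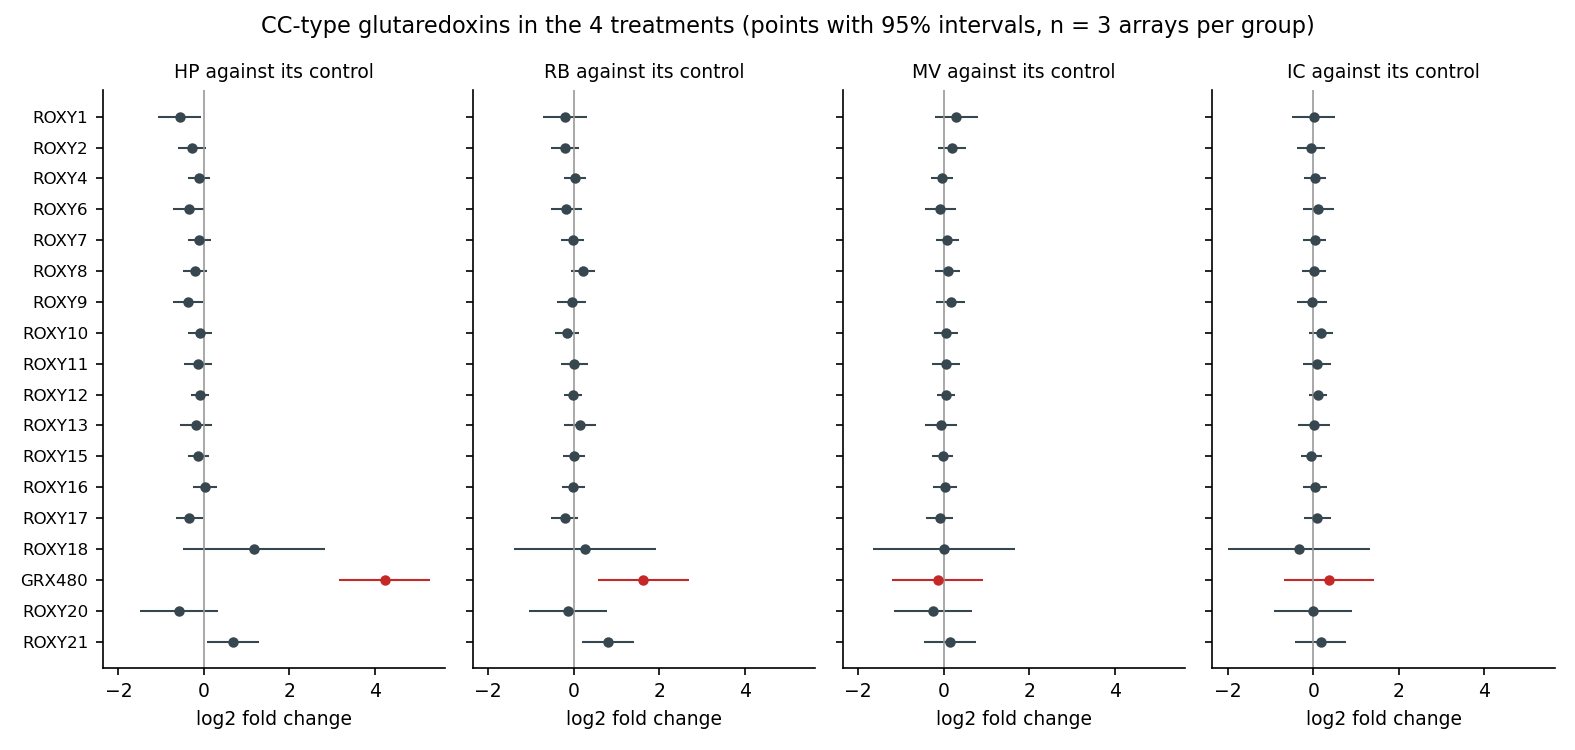
Log2 fold changes of 18 CC-type glutaredoxins under HP, RB, MV and IC, each against its own control, with 95% intervals from the fit without the block. GRX480 (red) stands at 4.23 under HP and 1.63 under RB, while the other 17 lie between -0.59 and 1.17 in these panels. All but ROXY18, ROXY20 and ROXY21 among these 17 had a mean log2 signal of at most 4.46, where a change could be missed.

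Of 10 glutaredoxins of the CPYC and CGFS classes, which are shared with other organisms, 5 had a named probe set. They were GRXC1, GRXC2, GRXC3, GRXC4 and GRXS12, so no glutaredoxin of the CGFS class was measured here. By limma 0 of the 5 were called under H2O2 or RB, with or without the block. Of all probe sets 0.813% and 2.96% were called without the block and 2.37% and 7.25% with it. Without the block 0 of the 5 had an unadjusted p under 0.05, beside 2898 under H2O2 and 3379 under RB of the 22746 probe sets. GRXC2, a cytosolic glutaredoxin, had log2 fold changes of 0.35 under H2O2 and 0.34 under RB (limma adjusted p = 0.55 and 0.539), and GRXC3 had -0.23 under RB (adjusted p = 0.523).

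Of the other dehydroascorbate reductases 1 of 2 was named, DHAR3. Its log2 signal was 8.07, 7.98 and 8.05 in the control of RB and HP, 7.69, 7.40 and 7.44 in RB and 7.99, 7.71 and 7.74 in HP. All RB arrays lay below the control arrays. DHAR3 fell under RB, with a log2 fold change of -0.52 (standard error 0.118, limma adjusted p = 0.0231), beside 1.52% of probe sets called lower. Pairs of the same number differed by -0.38, -0.58 and -0.62. The call held with the block (adjusted p = 0.0141), where 7.25% of probe sets were called, and in 14 of the 18 fits without 1 array. It was lost without control array 1, control array 2, RB array 2 or RB array 3, with adjusted p from 0.0521 to 0.0951. It was also lost with a trended robust prior (adjusted p = 0.0897) and with the RB and control arrays fitted alone (adjusted p = 0.294). DHAR3 was named through the study's list of transcripts changed in these arrays, so its call is not independent evidence. Under H2O2 its log2 fold change was -0.22 (adjusted p = 0.456), where DHAR2 rose, and under MV and IC it was -0.052 and 0.086. The difference between the dehydroascorbate reductases in their response was not tested.

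Few enzymes around DHAR2 in the ascorbate–glutathione cycle could be named. Of 15 monodehydroascorbate reductases, ascorbate peroxidases and glutathione reductases 5 were named, and 0 were called under H2O2 or RB with or without the block. Without the block 0 of the 5 had an unadjusted p under 0.05, beside 2898 under H2O2 and 3379 under RB of the 22746 probe sets. At 0.813% and 2.96% of all probe sets called under H2O2 and RB, 0 of 5 is no result about these enzymes. Under H2O2 they ran from -0.082 in the thylakoid peroxidase TAPX to 0.35 in the stromal peroxidase SAPX, with a median of 0.142. The glutathione reductases GR1 and GR2, which regenerate the glutathione that DHAR2 spends, had log2 fold changes of 0.14 and 0.24 under H2O2 (limma adjusted p = 0.746 and 0.528). Of 9 genes of glutathione and ascorbate synthesis 5 were named and 0 were called without the block. Of these 5, 2 under H2O2 and 1 under RB had an unadjusted p under 0.05, beside the same 2898 and 3379 of all probe sets. GSH1, which catalyses the first step of glutathione synthesis, had log2 signals of 9.20, 9.61 and 9.76 in the control and 10.16 and 10.55 in HP arrays 1 and 3, with HP array 2 between 9.76 and 10.16, so that the groups did not overlap. Within pairs the difference was 0.96, 0.39 and 0.79. Its log2 fold change was 0.72 (standard error 0.185, adjusted p = 0.108), which passed with the block (adjusted p = 0.0429) and without control array 3 (adjusted p = 0.0333). With the block 1.77% of probe sets were called higher, and GSH1 was named through the study's tables, so that call is not independent evidence.

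Of 13 TGA factors, their partners and defence genes downstream of them 2 were named, and no TGA factor was among them. NPR1, a coactivator of TGA factors in salicylic acid signalling, had log2 signals of 6.70, 6.0 and 5.50 in the control and 7.11, 6.68 and 6.58 in RB, which overlapped. Pairs of the same number differed by 0.41, 0.68 and 1.09. The log2 fold change under RB was 0.72 (standard error 0.283, limma adjusted p = 0.222, and 0.0176 with the block, where 7.25% of probe sets were called and 3.56% were called higher), and under H2O2 it was 0.35 (adjusted p = 0.623). Without control array 3 the value under RB was 0.44, and without control array 1 it was 1.04. The defensin PDF1.2, a jasmonate- and ethylene-responsive gene, had log2 fold changes of -0.027 under H2O2 and -0.098 under RB (adjusted p = 0.945 and 0.785). Its mean log2 signal over all arrays was 3.26, below every array median, so a fall could have been missed. NPR1 was named through the study's tables, so its call with the block is not independent evidence.

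Among 14370 other probe sets of a single locus, those whose log2 signal over the 18 arrays was most like that of GRX480 were GSTU11 (r = 0.952), At4g01870 (r = 0.948), GSTU19 (r = 0.944), At5g16960 (r = 0.943) and At5g14730 (r = 0.932). GSTU11 and GSTU19 encode glutathione transferases of the tau class. Their log2 fold changes under H2O2 were 1.95 for GSTU11, 4.67 for At4g01870, 0.94 for GSTU19, 4.09 for At5g16960 and 4.28 for At5g14730, and those under RB were 0.63, 1.85, 0.014, 1.02 and 1.31. Once the group means were subtracted, GSTU19 kept r = 0.848 and GSTU11 r = 0.719, and the others lay between 0.45 and 0.463. The probe sets most like DHAR2 were At1g21680 (r = 0.888), At5g51830 (r = 0.885), At5g07860 (r = 0.843), At1g19110 (r = 0.837) and At5g39890 (r = 0.828). They had log2 fold changes under H2O2 of 1.58, 1.59, 2.63, 0.51 and 0.76, and under RB of -0.53, -0.17, 0.77, -0.0099 and -0.15. These genes were picked for their likeness, so the values are a description. GSTU11, GSTU19 and At5g39890 were named through the study's tables, and no gene was among the nearest 5 of both members.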

How the data were processed

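Light-grown ACSC were treated as described above, and the authors hybridized RNA of 18 samples to ATH1 arrays, 1 per sample. The deposited values are log2 signals per probe set that the authors made by RMA with quantile normalization, and the affy package is named in the submitters' processing notes. Versions, and whether all arrays were normalized together, are not given in the sources used here. No genome build or detection call accompanies the values, and the number of arrays limits the precision.

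Of 22810 probe sets 64 controls were left out. Probe sets were given loci from the platform annotation (14016) or from the locus column of the study's tables (899), of which 14375 had 1 locus, 540 several and 7895 none. Limma 3.58.1 in R 4.3.3 fitted the 6 group means over the other 22746 probe sets, with Benjamini–Hochberg adjustment over all of them and 12 residual and 3.37 prior degrees of freedom. A call is an adjusted p under 0.05. Titles in the labels give each control array the number of the treated arrays it belongs to, so the numbers pair the arrays. The fit of the 6 group means leaves this pairing out. A difference not called there can pass once the arrays are paired, as GRX480 did under RB. Deviations of same-numbered arrays from their group means correlated with a mean r of 0.563 for control with HP, 0.388 for RB with HP, 0.218 for control with RB (lowest 0.000948, number 3), 0.427 for control with IC, 0.389 for MV with IC and 0.161 for control with MV (lowest -0.333, number 3). A fit with the replicate number as a block within each set of arrays was an alternative, as were leaving out each array, a further quantile normalization, subtracting array medians, a filter at a mean log2 signal of 5.09, keeping the control probe sets, a trended robust prior and fitting only the arrays compared. On simulated data for RB against its control over 22746 probe sets, 67% of 100 probe sets changed by a log2 value of 1 and 97% of 100 changed by 2 were called, beside 9 unchanged ones. The simulated noise was drawn independently for each array and probe set. It lacks the deviations that same-numbered arrays share, so these values do not give the power or the error rate for the real arrays.

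The genes named were the members, genes of 6 lists, the marker RCA and the 5 probe sets most like each member by Pearson's r. All lists together, with the members and the markers, held 80 loci, of which 38 had a probe set. Members and lists were chosen with earlier results of these data known, and the alternatives for DHAR3, ROXY18, ROXY21, NPR1 and GSH1 were chosen after seeing the data. Figures were drawn with matplotlib 3.10.9.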

Additional observations from a re-analysis of the deposited data

Results flagged for a closer look

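RB and HP, each against the same control arrays, differed in their effect on both transcripts by the limma test of the difference itself. For GRX480 the difference of RB from HP was -2.59 on the log2 scale (adjusted p = 0.00858), and for DHAR2 it was -1.86 (adjusted p = 0.00116). All 3 same-numbered pairs showed the direction for each transcript. DHAR2 was named through the study's list of transcripts changed by H2O2 in these arrays, so its difference is not independent evidence. The concentration of H2O2 had been chosen in the study to give oxidative damage comparable with that of the photosensitizers.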

How the results depend on the processing

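The rise of GRX480 and DHAR2 under H2O2 and their lower level in RB than in HP kept their direction under every alternative run, and were called in all 18 fits without 1 array. Exceptions came from fits to only the arrays compared, which leave fewer samples: DHAR2 under H2O2 stayed at 1.96 (adjusted p = 0.0637) and GRX480 in RB against HP at -2.59 (adjusted p = 0.0522), while GRX480 under RB, at 1.63, passed there (adjusted p = 0.0405). With the replicate block GRX480 under RB, again 1.63, passed (adjusted p = 0.0147), and the block changed no other call of the members. It raised the count of probe sets called to 1649 for RB, 539 for HP, 1559 for RB against HP, and 305 and 554 for the effect of RB against those of MV and IC. It was not run between the control groups, whose arrays lie in different blocks. Fitting only the arrays compared lowered these counts to 136, 36, 375, 54 and 81, and that between the control groups to 24.

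Small differences of DHAR2 turned sign. With array medians subtracted they were -0.013 for RB, 0.015 for MV, 0.04 for IC, and -0.029 and -0.053 for the effect of RB against those of MV and IC, where the median of all probe sets shifted by -0.104, 0.0236, 0.0448, -0.128 and -0.149. It shifted by -0.116 for HP. With a further quantile normalization they were 0.07 for MV, 0.028 for IC and 0.042 for MV against IC. The cause was not tested.

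Without 1 array, log2 differences of GRX480 ran from 1.39 to 1.80 for RB, 3.71 to 4.72 for HP, -0.39 to 0.024 for MV, -0.21 to 0.91 for IC, -3.09 to -2.08 for RB against HP, -1.05 to 0.073 for MV against IC, -0.096 to 0.32 between controls, 1.53 to 2.02 for RB against MV effects and 0.72 to 1.85 for RB against IC effects. Those of DHAR2 ran from -0.22 to 0.42 for RB, 1.68 to 2.10 for HP, -0.14 to 0.087 for MV, -0.14 to 0.085 for IC, -2.18 to -1.54 for RB against HP, -0.14 to 0.13 for MV against IC, -0.77 to -0.35 between controls, -0.21 to 0.43 for RB against MV effects and -0.22 to 0.42 for RB against IC effects. Counts of called probe sets ran from 384 (without RB array 3) to 1395 (without control array 3) for RB, 93 (without HP array 1) to 1018 (without control array 3) for HP, 295 to 745 for RB against HP, 386 to 3724 between controls, 44 to 138 for RB against MV effects and 63 to 302 for RB against IC effects. These fits had no replicate block, and GRX480 under RB was called in 0 of the 18 (limma adjusted p from 0.0525 to 0.267). Leaving out arrays was not combined with the block, so these fits do not show how far the paired result depends on 1 array.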
